A study of Mus musculus with 4 samples.

Results

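Skeletal muscle contractile genes were followed in 4 RNA-seq libraries of mouse sympathetic ganglia (SG). The genes were a list of 44 symbols, matched to the Entrez identifiers of the deposited tables, out of 17667 genes listed in at least 1 library. All 44 were found, and 35 had a mean of at least 5 expected reads over the 4 libraries. The list was sorted by textbook fibre type into 15 fast genes, 8 slow or cardiac genes, 20 genes shared by all striated fibres and the perinatal myosin gene *Myh8*. Each library was made from thoracic T1-T4 SG, which innervate interscapular brown fat, and pooled 6 C57BL/6 mice, which were 12 weeks old and had spent 1 day at 5 °C. The groups were WT (n = 2 libraries, named WT_1 and WT_2 after their labels), TRKC+/- (n = 1), haploinsufficient for the NT-3 receptor TRKC (gene *Ntrk3*) and not only in sympathetic neurons, and AdNTF3-Tg (n = 1), a transgenic line that overexpresses NT-3 in adipocytes from an adiponectin promoter. The labels do not say which WT library belongs with which mutant, although the names of the deposited tables place WT_1 with TRKC+/- and WT_2 with AdNTF3-Tg. Each mutant library was therefore set beside both. A pool hides the spread between its mice, and with 1 library per mutant the only spread within a group is that between the WT pools. The study describes separate WT control mice for each mutant line. That spread may therefore hold a difference between those controls as well as one between replicates.

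Striated muscle contracts when myosin thick filaments pull on actin thin filaments within the sarcomere. Calcium released from the sarcoplasmic reticulum binds troponin C, and troponins I and T then shift tropomyosin away from the myosin-binding sites on actin. Fast and slow fibres use different genes for most of these parts, so that the ratio of a fast gene to its slow partner describes the fibre type. A sympathetic ganglion consists of neurons, glia, vessels and connective tissue and has no striated fibres of its own.

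Defining genes of sympathetic neurons were present in all libraries, and their sum was even. The 12 marker genes of these neurons, among them *Th* and *Dbh* of catecholamine synthesis, summed to between 19310 and 19769 CPM, the reads of a gene scaled to the library's total on genes. Single genes among them varied more, as *Slc18a2* of vesicular monoamine uptake, whose reads in WT_1 were 0.83-fold those in WT_2 (0.81 to 0.85). The reads counted on genes were between 8.67e+06 and 8.89e+06 per library, so that 3 reads, the smallest signal taken as detectable, were about 0.337 to 0.346 CPM. *Ntrk3* had 78 reads in WT_1, 91 in the library labelled TRKC+/-, 76 in AdNTF3-Tg and 83 in WT_2. It was thus not lower in the library labelled TRKC+/-, and the part of the gene that the disrupted allele lacks is not given in the sources used here.

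Promoters of 4 members are shown because these genes carry the contrasts that follow. *Acta1* and *Myh4* stand for the abundant actin and fast myosin, and *Tnnc2* and *Tnnc1* are the fast and the slow troponin C. The 250 bases before the annotated start are given 5' to 3' from RefSeq on GRCm38.p6, and capitals mark matches on either strand to the E-box CANNTG, to TATAAA, or to the CArG box, the site of serum response factor, and the MEF2 site by their consensus. The MEF2 site was searched in its strict form, which starts with CTA and ends with TAG, and wider forms are not marked. No marked matches overlapped in these windows.
*Acta1* (chr8:123894776-123895025, minus strand): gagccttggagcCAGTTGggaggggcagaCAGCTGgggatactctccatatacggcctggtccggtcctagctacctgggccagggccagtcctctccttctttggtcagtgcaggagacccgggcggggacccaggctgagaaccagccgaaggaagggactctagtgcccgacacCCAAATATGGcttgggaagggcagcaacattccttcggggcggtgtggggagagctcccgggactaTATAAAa
*Myh4* (chr11:67237562-67237811, plus strand): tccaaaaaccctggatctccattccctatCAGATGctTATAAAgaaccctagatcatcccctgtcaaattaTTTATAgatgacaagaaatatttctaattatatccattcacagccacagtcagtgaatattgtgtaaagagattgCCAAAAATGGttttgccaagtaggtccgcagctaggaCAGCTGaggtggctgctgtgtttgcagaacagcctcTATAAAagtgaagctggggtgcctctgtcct
*Tnnc2* (chr2:164779735-164779984, minus strand): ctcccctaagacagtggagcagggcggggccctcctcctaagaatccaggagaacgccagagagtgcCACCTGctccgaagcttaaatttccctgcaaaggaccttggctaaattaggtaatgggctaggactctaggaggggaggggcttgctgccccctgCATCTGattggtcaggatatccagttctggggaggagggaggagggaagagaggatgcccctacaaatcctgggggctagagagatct
*Tnnc1* (chr14:31208062-31208311, plus strand): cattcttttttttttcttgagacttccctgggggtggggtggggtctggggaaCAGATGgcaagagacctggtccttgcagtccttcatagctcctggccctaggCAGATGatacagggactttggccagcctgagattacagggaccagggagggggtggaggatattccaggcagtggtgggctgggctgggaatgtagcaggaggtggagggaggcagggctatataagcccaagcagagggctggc
Each of the 4 windows held 2 E-boxes, a motif found in 66.2% of all 32851 promoter windows. *Acta1* and *Myh4* each held 1 CArG box, found in 1.47% of all windows, and neither troponin C gene held one. Of the 36 members with an entry, 5 held a CArG box in at least 1 window (*Acta1*, *Actc1*, *Ldb3*, *Myh4* and *Myom1*), 7 held TATAAA, 2 held a MEF2 site (*Ttn* and *Xirp2*) and 30 held an E-box. Of all 27025 genes in the table, 1.62% held a CArG box in at least 1 window, 14.3% TATAAA, 0.592% a MEF2 site and 69.3% an E-box. Over all windows, TATAAA was found in 12.4% and the MEF2 site in 0.508%.

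Fast fibre genes differed most between the libraries, and the pair that differed most was the 2 WT libraries. The 15 fast genes together had 1506 reads in WT_1 (174 CPM), 786 in the library labelled TRKC+/- (88.4 CPM), 588 in AdNTF3-Tg (66.8 CPM) and 228 in WT_2 (25.8 CPM). WT_1 was 6.74-fold above WT_2 (95% counting interval 5.86 to 7.79). The myosin light chain *Myl1* held most of the fast reads of WT_2, and without it the fold was 22.9 (17.5 to 30.5). The 8 slow or cardiac genes summed to 15.2, 11.4, 12.4 and 13.5 CPM in the same order of libraries, a fold of 1.13 between WT_1 and WT_2 (0.88 to 1.46), with the library labelled TRKC+/- at 0.75-fold of WT_1 (0.58 to 0.98). Without *Tnnc1*, the slow gene with most reads, they summed to 9.69, 7.93, 6.47 and 6.24 CPM, and WT_1 was 1.56-fold above WT_2 (1.10 to 2.23). Among the 20 shared genes the fold was 1.43 (1.36 to 1.51), and without the tropomyosin gene *Tpm1*, which held most of their reads in every library, it was 3.23 (2.89 to 3.62). Counting intervals are exact Clopper-Pearson intervals of the share of reads in 1 of 2 libraries. They cover counting error only and compare those libraries, not the genotypes. In bulk tissue, fewer cells that express these genes and less of their RNA per cell cannot be told apart. Which cells the reads came from was not tested.

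**Figure D1:**
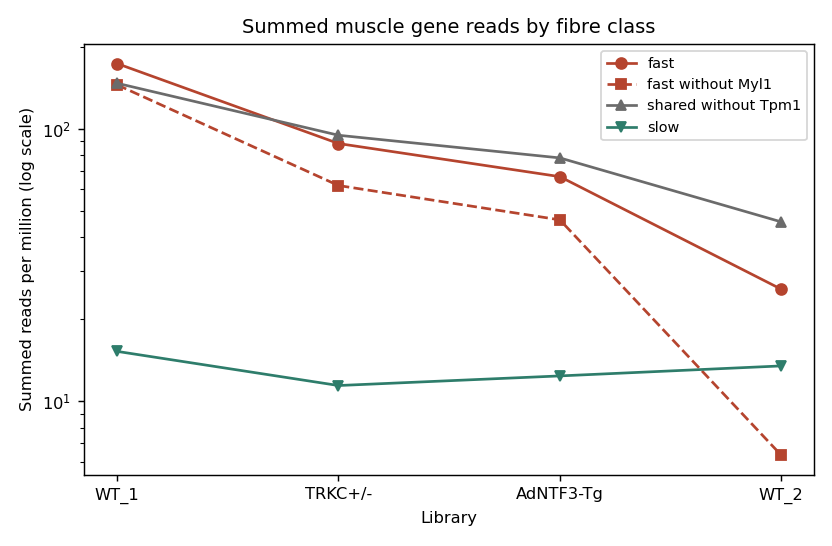
Summed CPM (log scale) of each fibre class in the 4 libraries, with 1 point per library and no error bars, shown also for the fast genes without *Myl1* and for the shared genes only without *Tpm1*. The fast genes go from 174 in WT_1 to 25.8 in WT_2, and the slow genes stay between 11.4 and 15.2.

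Gene by gene, 29 of the 35 members that passed the filter were higher in WT_1 than in WT_2 by a log2 ratio of at least 0.5, against 6.68% of all 14485 genes tested, and 0 were lower by as much, against 4.8%. The ratio was taken of FPKM (reads scaled to gene length and library) after adding 0.1, which understates the change of low genes, and 0.5 was the cutoff of the study's methods. By class, 15 of 15 fast, 13 of 16 shared and 1 of 4 slow genes passed it, the slow one being myoglobin (*Mb*). The counting interval lay above 0 for 27 of the 35, against 12.1% of all genes tested. The median log2 ratio was 3.90 over the fast genes, 1.13 over the shared genes and -0.04 over the slow genes, beside 0.01 over all genes tested. Some genes, such as *Pvalb* and *Casq1*, passed the filter through the libraries in which they were high, so that these counts describe the list and are no test of it.

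**Figure D2:**
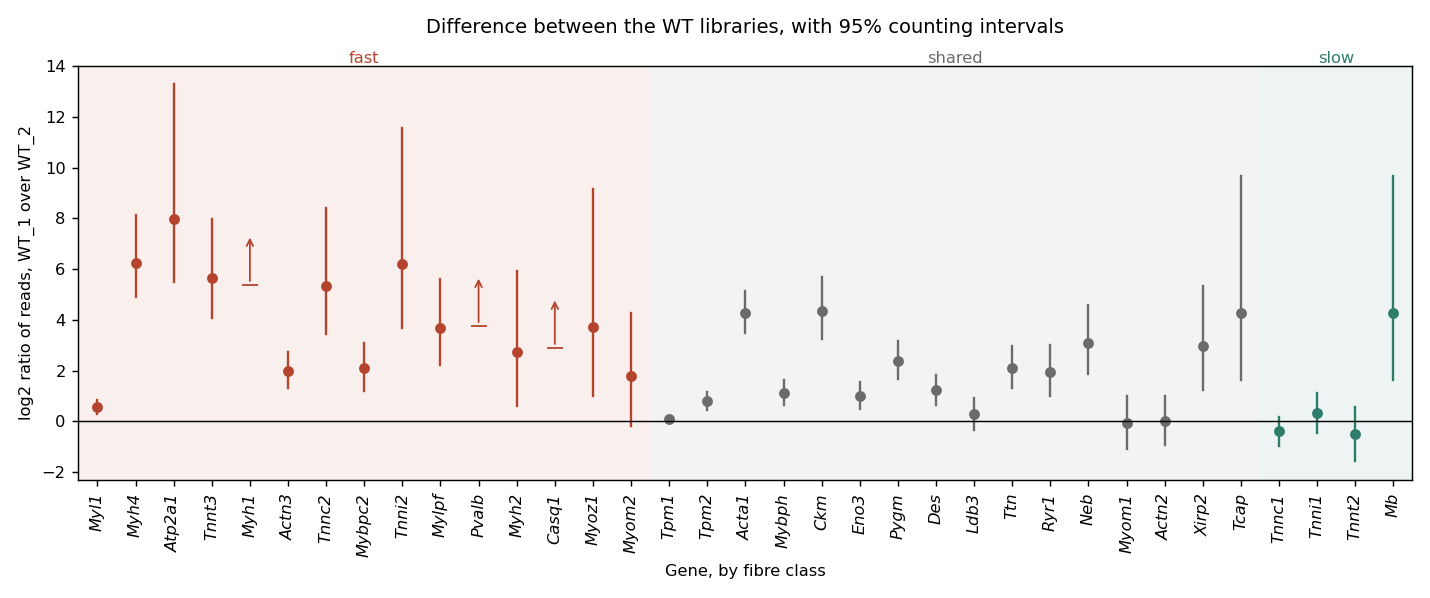
log2 ratio of reads of WT_1 over WT_2 for the 35 members that passed the filter, sorted by fibre class and by reads, with 95% counting intervals as bars. Arrows start at the bound against 3 reads in WT_2 for *Myh1*, *Pvalb* and *Casq1*, which had 0 reads in WT_2. The fast genes lie above 0 apart from the lower end of the interval of *Myom2*, and *Tnnc1*, *Tnni1* and *Tnnt2* of the slow class have intervals that include 0.

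The thick filament was led by the fast myosin heavy chains, the motors of the sarcomere. *Myh4*, the heavy chain of the fastest fibres, had 5.76 FPKM (299.71 reads) in WT_1, 1.84 (98) in the library labelled TRKC+/-, 2.28 (120) in AdNTF3-Tg and 0.08 (4) in WT_2. All libraries but WT_2 were thus well above the detectable signal, and WT_1 exceeded WT_2 by 76.6-fold in reads (29.6 to 283). *Myh1*, of fast IIx fibres, had 122.8, 63.16, 20.36 and 0 reads in the same order, at least 41.8-fold more in WT_1 when 3 reads are taken for WT_2, a bound that leaves out the counting error of WT_1 (with it, the interval starts at 33.5-fold). *Myh2*, of fast oxidative fibres, had 13.49, 12.84, 9.64 and 2 reads. The slow *Myh7* had between 3 and 4.5 reads in each library, and *Myh8* had 1 read in the library labelled TRKC+/- and 0 elsewhere. These genes are close paralogs, *Myh2*, *Myh1*, *Myh4* and *Myh8* being neighbours on chromosome 11. Their counts were in part fractional, so that how the reads divide among them is uncertain.

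Shares of the 5 heavy chains do not depend on library scaling. *Myh4* made up 68.3% of 439 heavy chain reads in WT_1 (exact 95% interval 63.8 to 72.7%), 54.7% of 179 in the library labelled TRKC+/- (47.2 to 62.2%) and 78.4% of 153 in AdNTF3-Tg (71.1 to 84.7%). In WT_2 only 9 heavy chain reads were counted, too few to give a composition. For *Myh1* the shares were 28.0% (23.9 to 32.5%), 35.2% (28.2 to 42.7%) and 13.1% (8.17 to 19.5%) in the first 3 libraries. As the reads were divided, the mix of the 2 main fast chains differed between the mutant libraries by more than counting error. The share of *Myh1* was larger in the library labelled TRKC+/- and that of *Myh4* in AdNTF3-Tg. The intervals leave out the uncertainty of dividing reads among these paralogs, and each mutant has a single library.

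Other thick filament genes kept the same order of libraries where they passed the filter, with ratios of different size. The regulatory light chain *Mylpf* of fast fibres had 8.18 FPKM in WT_1, 3.40 in the library labelled TRKC+/-, 2.15 in AdNTF3-Tg and 0.66 in WT_2. The fast myosin-binding protein *Mybpc2* had 1.74, 1.26, 0.57 and 0.41 FPKM, and its relative *Mybph* had 7.21, 5.81, 5.27 and 3.35. Both kept WT_1 at the top and WT_2 at the bottom, with ratios of reads between them of 4.24 (2.28 to 8.47) and 2.18 (1.56 to 3.08). *Myl1*, which encodes the alkali light chains of fast fibres, had 33.35, 30.6, 24.2 and 21.4 FPKM, and its reads in WT_1 were 1.47-fold those in WT_2 (1.21 to 1.80). It was thus the fast gene with the smallest ratio of reads. *Mybpc1*, the slow binding protein, had between 1 and 8 reads.

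In the thin filament the skeletal actin gene *Acta1* had 21.1 FPKM (262 reads) in WT_1, 10.2 (129) in the library labelled TRKC+/-, 7.79 (97) in AdNTF3-Tg and 1.12 (14) in WT_2. Both mutant libraries lay between the WT libraries, whose mean was 11.1 ± 14.1 FPKM (SD, n = 2). The cardiac actin gene *Actc1* had between 1 and 4 reads. *Tpm1*, a tropomyosin gene also used in smooth muscle and non-muscle cells, was the most abundant member at 148, 144, 147 and 141 FPKM, with a ratio of reads between the WT libraries of 1.05 (0.99 to 1.12). *Tpm2* had 10.35, 9.42, 9.06 and 5.95 FPKM. Nebulin (*Neb*), which runs along the thin filament, had 50, 16, 12 and 6 reads.

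Troponins give each fast gene a slow partner in the same complex. *Tnni2*, fast troponin I, had 13.65 FPKM (73 reads) in WT_1, 3.15 (17) in the library labelled TRKC+/-, 5.51 (29) in AdNTF3-Tg and 0.19 (1) in WT_2. Its slow partner *Tnni1* had 3.85, 2.53, 2.34 and 3.03 FPKM, so that WT_2 was low for the fast gene alone. *Tnnc2*, fast troponin C, had 14.1, 7.67, 4.28 and 0.35 FPKM, while the slow and cardiac *Tnnc1* had 8.48, 5.42, 9.31 and 11.4 FPKM. *Tnnc1* was thus highest in the library in which *Tnnc2* was lowest, with 64 reads against 48 in WT_1, a difference within the counting interval (fold 0.77 in WT_1 over WT_2, 0.52 to 1.13). *Tnnt3*, fast troponin T, had 17.3, 9.91, 6.10 and 0.35 FPKM. The cardiac *Tnnt2* had 1.42, 2.20, 1.37 and 1.95 FPKM, and slow *Tnnt1* had between 0 and 6 reads.

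**Figure D3:**
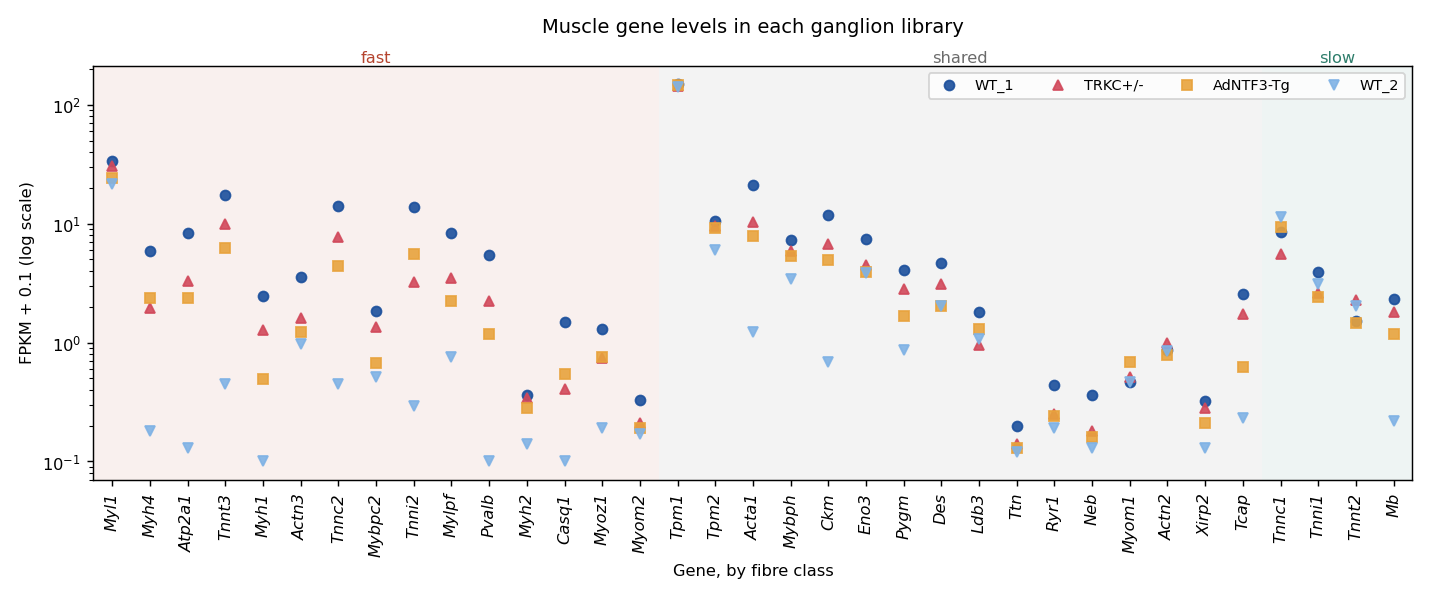
FPKM + 0.1 (log scale) of the 35 members that passed the filter, with 1 symbol per library and genes sorted by fibre class and by reads. WT_1 is at the top and WT_2 at the bottom for most fast and shared genes, as for *Acta1* at 21.1 and 1.12 FPKM, whereas *Tnnc1* has its highest value, 11.4 FPKM, in WT_2.

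As shares of reads, the fast troponins dropped to a small part in WT_2. *Tnni2* made up 68.9% of the troponin I reads in WT_1 (59.1 to 77.5%), 43.6% in the library labelled TRKC+/- (27.8 to 60.4%), 59.2% in AdNTF3-Tg (44.2 to 73.0%) and 3.57% in WT_2 (0.0904 to 18.3%). *Tnnc2* made up 62.5% of the troponin C reads (53.5 to 70.9%), 58.7% (46.7 to 69.9%), 31.6% (21.4 to 43.2%) and 3.03% (0.369 to 10.5%) in the same order. *Tnnt3* made up 89.8% of the troponin T reads (84.1 to 93.9%), 79.1% (70.3 to 86.3%), 72.2% (60.4 to 82.1%) and 12.5% (2.66 to 32.4%). For all 3 subunits the interval of WT_2 lay below that of each other library. The troponin T reads of WT_2 were 20 of cardiac *Tnnt2*, 3 of *Tnnt3* and 1 of slow *Tnnt1*. The shares thus set fast genes against slow or cardiac ones and do not give a fibre type by themselves. The library labelled TRKC+/- exceeded AdNTF3-Tg for *Tnnc2* without overlap of the intervals, but the intervals of *Tnni2* and of *Tnnt3* overlapped.

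**Figure D4:**
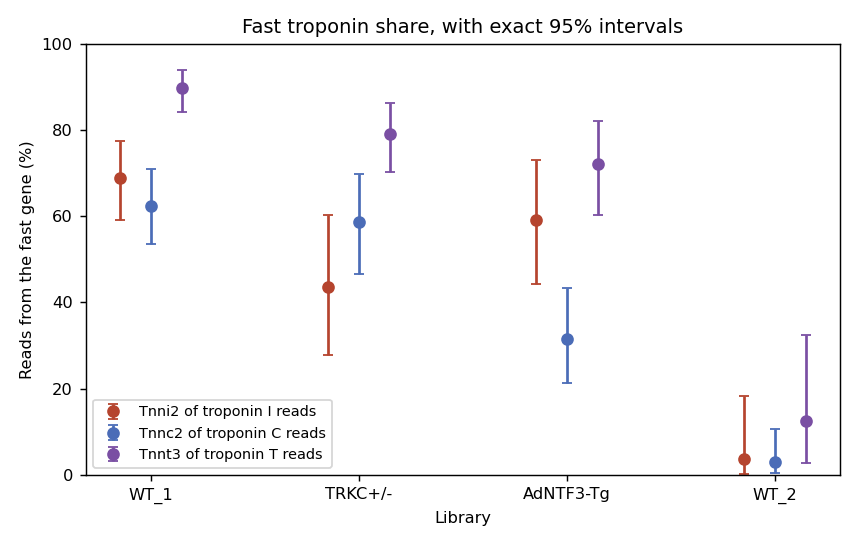
Share of the troponin I, C and T reads that came from the fast gene in each library, with exact 95% intervals as bars. The shares are at most 12.5% in WT_2 and at least 31.6% in the other libraries.

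Scaffold genes of the Z-disc and M-band differed in how far the libraries stood apart. *Actn3*, the alpha-actinin of fast fibres, had 3.49 FPKM in WT_1, 1.51 in the library labelled TRKC+/-, 1.13 in AdNTF3-Tg and 0.88 in WT_2. *Actn2*, the alpha-actinin of all striated fibres and the heart, had 0.76, 0.89, 0.68 and 0.75 FPKM and showed no detectable difference at 18 to 24 reads. Telethonin (*Tcap*), which caps titin, had 19, 13, 4 and 1 reads, and the fast Z-disc gene *Myoz1* had 13, 7, 7 and 1. Titin itself (*Ttn*), whose length puts it at 0.10 FPKM or less, had 71, 31, 24 and 17 reads. The actin-binding repeat gene *Xirp2* had 23, 19, 12 and 3. The M-band genes parted, with *Myom2* of fast fibres at 10, 5, 4 and 3 reads and *Myom1* at 17, 19, 29 and 18. Desmin (*Des*), the intermediate filament of all muscle, smooth muscle included, had 4.53, 2.99, 1.95 and 1.94 FPKM. *Ldb3* of the Z-disc had 48, 26, 42 and 40 reads. Its FPKM ratio between the WT libraries passed the cutoff and its ratio of reads did not exceed counting error (1.23, 0.79 to 1.91), and the files give it a different length in each library. *Myot* and *Smpx* had at most 6 reads.

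Calcium handling showed the widest gap of any role. The 5 genes together had 356 reads in WT_1 and 14 in WT_2, a 26.0-fold difference (15.3 to 48.0). The fast calcium pump gene *Atp2a1*, which refills the sarcoplasmic reticulum, had 8.21 FPKM (245 reads) in WT_1, 3.18 (97) in the library labelled TRKC+/-, 2.26 (68) in AdNTF3-Tg and 0.03 (1) in WT_2. Its ratio between the WT libraries was 250-fold in reads, with an interval of 44.5 to 9920 because WT_2 held a single read. Parvalbumin (*Pvalb*), a cytosolic calcium buffer of fast fibres and of some neurons, had 40, 16, 8 and 0 reads, and the calcium store protein gene *Casq1* had 22, 5, 7 and 0. Against 3 reads in WT_2, WT_1 was at least 13.6-fold higher for *Pvalb* and at least 7.49-fold higher for *Casq1*, and their counting intervals start at 10.6-fold and 5.59-fold. The release channel gene *Ryr1* had 45, 21, 19 and 12 reads, and *Cacna1s*, the voltage sensor, had at most 4.

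Energy genes that passed the filter kept the same libraries at the ends. Muscle creatine kinase (*Ckm*), which rebuilds ATP from creatine phosphate, had 11.65 FPKM (138 reads) in WT_1, 6.71 (81) in the library labelled TRKC+/-, 4.89 (58) in AdNTF3-Tg and 0.59 (7) in WT_2. Muscle glycogen phosphorylase (*Pygm*) had 3.95, 2.75, 1.58 and 0.76 FPKM, and the oxygen carrier *Mb* had 19, 14, 10 and 1 reads. *Mb* therefore followed the fast genes although its class is slow. The glycolytic enolase gene *Eno3* had 7.34, 4.40, 3.82 and 3.74 FPKM, with 48 reads in both AdNTF3-Tg and WT_2. The mitochondrial creatine kinase *Ckmt2* had at most 5 reads.

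Library order was kept across most fast and shared genes. WT_1 was highest and WT_2 lowest in 29 of the 35 members, against 8.44% of all genes tested, and these were 15 of 15 fast, 13 of 16 shared and 1 of 4 slow genes. The full order of WT_1, the library labelled TRKC+/-, AdNTF3-Tg and WT_2 was found for 24 of the 35, against 4.96% of all genes tested. Of these, 11 were fast genes, 12 shared and 1 slow. The order of the 2 mutant libraries was the least certain step. The counting interval lay above 0 for 19 of the 35 members in the step from WT_1 to the library labelled TRKC+/- (7.78% of all genes), for 8 in the step from there to AdNTF3-Tg (12.4%) and for 17 in the step from AdNTF3-Tg to WT_2 (11.4%). Every step exceeded counting error for 6 of the 24 genes, namely *Acta1*, *Atp2a1*, *Myh1*, *Pygm*, *Tnnc2* and *Tnnt3*, and for 9 of all 14485 genes tested (0.0621%). Among the fast genes *Myh4*, *Tnni2*, *Casq1* and *Myoz1* had AdNTF3-Tg above the library labelled TRKC+/-, none of them by more than counting error. The 6 members without WT_1 at the top and WT_2 at the bottom were *Actn2*, *Ldb3*, *Myom1*, *Tnnc1*, *Tnni1* and *Tnnt2*.

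Set beside each WT library in turn, both mutant libraries changed direction. Against WT_1 the library labelled TRKC+/- was lower by the cutoff in 24 of the 35 members, where 4.94% of all genes tested were, and against WT_2 it was higher in 23, where 5.85% of all genes were. AdNTF3-Tg was lower than WT_1 in 25 members, against 7.32% of all genes, and higher than WT_2 in 20, against 5.36%. For *Acta1* the log2 ratio of the library labelled TRKC+/- was -1.04 to WT_1 and 3.08 to WT_2, and that of AdNTF3-Tg was -1.43 and 2.69. For *Ckm* they were -0.79 and 3.30, and -1.24 and 2.85. Read with the WT library that the names of the tables give each mutant, 20 of the 35 members were higher in AdNTF3-Tg by the cutoff, and the library labelled TRKC+/- was lower in 24. The count of 24 was 15 with a pseudocount of 1, where 1.54% of all genes were lower, and 8 with a cutoff of 1, where 1.1% were. The log2 ratio between the WT libraries was 4.12 for *Acta1* and 4.09 for *Ckm*. It exceeded either difference, as it must where both mutant libraries lie between the WT libraries. If those names hold, a difference in handling between the pairs cannot be told apart from the spread between WT pools. Comparisons with the same WT library are not independent of one another.

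With both WT libraries as 1 group, no member passed edgeR's quasi-likelihood test in either mutant library, a fit whose spread rests on the WT pair alone and assumes that a lone mutant library varies like WT. In the library labelled TRKC+/- 0 of 35 members had a Benjamini-Hochberg adjusted p under 0.05, where 0.0069% of all genes (1 gene, *Ucp1*) did, and 1 (*Tnnc1*) had an unadjusted p under it. In AdNTF3-Tg 0 of 35 passed, where 0% of all genes did, and 0 had an unadjusted p under the threshold. Of all genes tested, 281 and 807 had an unadjusted edgeR p under it. DESeq2 gave 0 members in both, adjusted or not, and of all genes 2 and 0 after adjustment and 22 and 63 before it. The adjusted p of *Acta1* was 0.998 in the library labelled TRKC+/- (log2 fold change -0.13 by edgeR) and 0.944 in AdNTF3-Tg (-0.51). For *Tnnc1* in the library labelled TRKC+/-, edgeR gave a log2 fold change of -0.88 with an adjusted p of 0.998, and its value of 5.42 FPKM lay below both WT libraries (9.94 ± 2.06, SD, n = 2). The balance of higher and lower members turned on the scale on which the WT libraries were averaged. By the cutoff on log2 FPKM, 14 members were higher and 2 lower in the library labelled TRKC+/- than the mean of the WT libraries, where 3.25% and 3.59% of all genes were. In AdNTF3-Tg 11 were higher and 4 lower, where 3.78% and 5.33% of all genes were. By the same cutoff on edgeR's log2 fold change against the WT group, 2 members were higher and 8 lower in the former, against 3.32% and 4.83% of all genes, and 1 was higher (*Myom1*) and 19 were lower in AdNTF3-Tg, against 3.96% and 6.68%. When the WT libraries were averaged as FPKM, 1 was higher and 6 were lower in the former, against 2.74% and 3.89%, and 1 was higher and 16 were lower in AdNTF3-Tg, against 3.25% and 5.86%. A p that misses the threshold does not show that the levels were alike.

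Other muscle genes, a list of 56 that holds none of the 44, had a median log2 ratio between the WT libraries of 0.50, beside 1.47 over the members. Of them 51 were listed and 31 tested, and 15 of these 31 were higher in WT_1 than in WT_2 by the cutoff, 1 (*Hrc*) was lower and 7 kept the full order, where 6.68%, 4.8% and 4.96% of all genes tested did. In neither mutant library did any of the 31 pass edgeR's test after adjustment. The 5 with most reads were *Pfkm*, *Gpd1*, *Chrna1*, *Hspb7* and *Srl*. The glycolytic genes *Pfkm* and *Gpd1*, which many tissues express, had ratios of reads of 1.01 (0.96 to 1.07) and 1.10 (1.01 to 1.19) between the WT libraries. *Chrna1*, the acetylcholine receptor subunit of the muscle endplate, had 136.46, 89.48, 53.74 and 79.89 reads. *Hspb7* had 85, 93, 91 and 67 reads and *Srl* 94, 83, 81 and 66. *Myl2* and *Myl3*, the light chains of slow and cardiac fibres, were listed in no library.

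Markers of other cells were set beside the muscle genes. Without *Tpm1*, the other 43 members summed to 336 CPM in WT_1, 195 in the library labelled TRKC+/-, 157 in AdNTF3-Tg and 84.8 in WT_2. Red blood cell markers moved in the same order, with 4 of 5 genes listed and sums of 95.02, 79.6, 47.4 and 35.1 CPM, a fold of 2.70 between the WT libraries (2.37 to 3.09). Hemoglobin genes *Hba-a1*, *Hba-a2* and *Hbb-bs* held nearly all of these reads, and 2 of the 4 genes, *Hba-a1* and *Hbb-bs*, kept the full order. The sums of smooth muscle markers, 9 of 9 listed, descended in that order too, at 218, 214, 191 and 181 (fold 1.21, 1.13 to 1.29), as did those of glial markers, 7 of 7, at 1230, 1229, 1147 and 1010 (fold 1.22, 1.18 to 1.25). Gene by gene, 0 of 8 smooth muscle genes tested and 1 of 7 glial genes kept the full order, against 4.96% of all genes tested. Adipocyte markers, 9 of 9, summed to 480, 333, 345 and 396, and brown adipocyte markers, 8 of 8, to 194, 98.0, 159 and 185, with their lowest values in the library labelled TRKC+/-. Endothelial markers, 5 of 5, lay between 102 and 120. The sums of cardiomyocyte markers, 7 of 8 listed, were between 5.00 and 7.15, those of cartilage and bone, 4 of 6, between 2.26 and 3.92, and those of muscle precursors, 4 of 8, between 1.58 and 2.16, with *Pax7*, *Pax3*, *Myf5* and *Myog* in no library. Whether adjoining tissue in the dissections had a part in the muscle values was not tested.

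**Figure D5:**
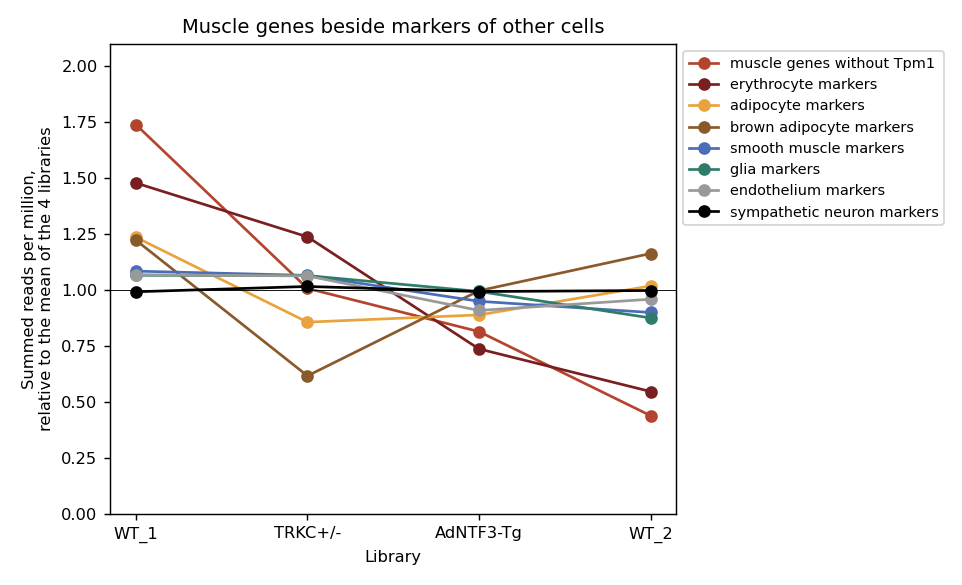
Summed CPM of the muscle genes without *Tpm1* and of marker lists of other cells, each divided by its mean over the 4 libraries, with 1 point per library. Muscle genes and red blood cell markers descend from WT_1 to WT_2, smooth muscle and glial markers do so over a narrower range, and the sympathetic neuron markers, at 19310 to 19769 CPM, stay near 1.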

How the data were processed

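RNA from pooled T1-T4 SG was enriched with oligo(dT) and sequenced as single-end reads. Per the study's methods, reads were filtered with SOAPnuke and mapped with HISAT2 to mm9. The submitters' processing notes name mm10 and RSEM. The authors deposited, for each gene, an expected count, not normalized, of which 92.6% to 93.7% were whole per library (tolerance 1e-06), and an FPKM value scaled to gene length and library reads. Whether counting used strand is not given in the sources used here. Genes not listed for a library were taken as 0. Symbols came from RefSeq (GRCm38.p6), which matched 17619 identifiers (99.7%), and promoters matched 36 of the 44 members.

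Genes with a mean expected count of at least 5 were tested. Rounded counts of the 4 libraries in 3 groups were fitted with edgeR (4.0.16; TMM, quasi-likelihood test, Benjamini-Hochberg adjustment), with 1 residual degree of freedom. DESeq2 (1.42.0) was an alternative. Log2 ratios used FPKM + 0.1 and a cutoff of 0.5. Counting intervals were exact at 95%, and a fold against 0 reads was computed against 3. Scripts were tested on simulated data. In those for edgeR and DESeq2 the WT libraries had equal gene levels, unlike the members here, so that these runs check the code only. The labels number only the WT libraries and do not say that pools came from separate litters, so that p-values measure the spread between these pools. Each member with a mean of at least 5 reads is given with its values, as are the 5 other muscle genes with most reads. *Hrc*, *Ucp1* and *Slc18a2* were named after their values were seen, and *Myl2*, *Myl3* and the muscle precursor genes were named because they were listed in no library. The promoters were chosen after the values were seen. The members, classes and lists were chosen with earlier results of these data known.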

Additional observations from a re-analysis of the deposited data

How the results depend on the processing

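No paired analysis was possible because the mutant groups hold 1 library each and the labels give them no number. The counts of members changed by edgeR's test stayed at 0 in both mutant libraries with DESeq2, without the filter and with a mean of at least 20 reads, and the test could not be fitted without a WT library, since no residual degree of freedom is left. Against the mean of the WT libraries on the log2 scale, 14 members were higher and 2 lower in the library labelled TRKC+/-, and 11 and 4 in AdNTF3-Tg, where 3.25%, 3.59%, 3.78% and 5.33% of all genes tested were. By edgeR's log2 fold change against the WT group the balance turned round, to 2 higher and 8 lower and to 1 and 19, and with the WT mean taken on the FPKM scale to 1 and 6 and to 1 and 16, both chosen after seeing the data. Without WT replicate 1, 23 members were higher and 1 lower in the library labelled TRKC+/-, where 5.85% and 4.89% of all genes were. In AdNTF3-Tg 20 were then higher and 0 lower, where 5.36% and 6.16% of all genes were. Without WT replicate 2, 1 was higher and 24 lower in the library labelled TRKC+/-, against 3.78% and 4.94%. In AdNTF3-Tg 1 was then higher and 25 lower, against 4.78% and 7.32%.

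The number of members higher in WT_1 than in WT_2 was between 22 and 29 of 35 under the other pseudocounts, scalings and cutoff (1.88% to 7.57% of all genes), 36 of 44 without the filter (11.1%) and 21 of 26 with a mean of at least 20 reads (4.02%). The number in the full order was 24 of 35 under the other scalings (5.11% and 5.18%), 24 of 44 without the filter (4.3%) and 18 of 26 with the stricter one (4.87%). The 24 members lower in the library labelled TRKC+/- than in WT_1 became 15 with a pseudocount of 1 (1.54% of all genes) and 8 with a cutoff of 1 (1.1%), and the other 3 counts against single WT libraries stayed within 1.5 times. The log2 ratio of summed reads, WT_1 over WT_2, was 2.75 for fast genes, 4.52 without *Myl1* and 2.25 as a sum of FPKM. For slow genes it was 0.18, and 0.64 without *Tnnc1*. For shared genes it was 0.52, 1.69 without *Tpm1*, and 1.98 without *Tpm1*, *Tpm2* and *Des*. Of the 35 single log2 ratios between the WT libraries, 0 changed direction past the cutoff, and with a pseudocount of 1, which lowers the ratio of low genes by construction, 19 lay outside their counting interval. Of these, 3 (*Myh1*, *Neb* and *Ttn*) lay below it with a pseudocount of 0.1 already, and 16 left it. Depth limits the members under 5 reads and every fold against WT_2 at 0 to 4 reads.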

Other observations

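Cardiac genes outside the member list were few. The cardiac heavy chain *Myh6* had 37, 22.5, 19 and 14.82 reads in WT_1, the library labelled TRKC+/-, AdNTF3-Tg and WT_2, a fold of 2.52 between the WT libraries (1.35 to 4.94), and *Myl4*, a light chain of the atrium and of embryonic muscle, had 14, 15, 17 and 18. Counts of *Myh6* that are not whole leave its reads uncertain beside its neighbour *Myh7*.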
